A study of Mus musculus with 21 samples.

Results

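The 37 genes of the mouse mitochondrial genome were followed through 21 livers of wild-type mice fed a diet that produces steatohepatitis with fibrosis. They were all genes of the count table whose symbol begins with mt-, 37 of 52636 gene IDs, and they are also all 37 genes that GENCODE M21 places on the mitochondrial chromosome. They comprise 13 mRNA genes, 2 rRNA genes and 22 tRNA genes, which were read apart. The diet, CDA-HFD, is a choline-deficient, amino acid-defined, high-fat diet. Livers were taken from 8 mice after 8 weeks and from 8 mice after 16 weeks on CDA-HFD, and from 5 mice after 8 weeks on normal chow, a time that the labels call week 0. All 3 groups are whole livers, and the labels give no sex, age, batch or pairing. No chow livers stood beside the 16-week livers, so the 16 weeks of diet and the mice's greater age cannot be told apart. Each library is a separate mouse liver as far as the labels say, and the p-values measure the spread between these libraries.

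Mitochondrial DNA is a small circle that encodes core subunits of the respiratory chain, and the rRNAs and tRNAs that translate them inside the organelle. Complexes I, III, IV and V each combine mitochondrially encoded subunits with nuclear ones, while complex II is entirely nuclear. Both strands are transcribed by the polymerase Polrmt into long precursors, with Tfam and Tfb2m at the promoters. The precursors are cut at the tRNAs that lie between the coding genes, so that the mature levels depend on transcription, cutting and decay together. Hepatocytes hold many mitochondria, which carry out fatty acid oxidation and supply ATP for urea and glucose synthesis.

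Of the 37 genes, 28 are transcribed from the heavy strand and 9 from the light strand. The only light-strand mRNA is mt-Nd6. The tRNAs with the most counts, mt-Ti (isoleucine), mt-Tl1 (leucine) and mt-Tm (methionine), all border mt-Nd1 or mt-Nd2 on the heavy strand. They are shown because they held most of the tRNA counts, and because the precursor is cut at their ends. Sequences are from the GENCODE M21 transcripts (GRCm38), 5′ to 3′, and mt-Tl1 (chrM:2676-2750), mt-Ti (chrM:3706-3774) and mt-Tm (chrM:3845-3913) have no capitals.
mt-Tl1: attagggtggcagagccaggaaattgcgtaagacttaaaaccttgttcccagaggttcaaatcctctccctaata
mt-Ti: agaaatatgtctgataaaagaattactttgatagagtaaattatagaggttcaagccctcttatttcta
mt-Tm: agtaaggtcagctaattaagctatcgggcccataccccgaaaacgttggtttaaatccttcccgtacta

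Parts of mitochondrial DNA are also present in the nuclear genome, and where the sequences are identical a short read of the copy cannot be told from a read of the gene. GENCODE M21 annotates 7 pseudogenes on the minus strand of chr1:24611535-24616197, a run of 4663 bases in the same order as on mitochondrial DNA. Within this run, Gm28661 matched 681 of the 684 bases of mt-Co2, Gm10925 matched 678 of the 681 bases of mt-Atp6 and Gm28437 matched 783 of the 784 bases of mt-Co3, each at 100% identity. Gm28438 matched 345 of the 348 bases of mt-Nd3 at 99.71% and Gm10222 matched 294 of the 297 bases of mt-Nd4l at 100%. The run covered only part of the neighbouring genes: Gm28439 matched the first 876 of the 1378 bases of mt-Nd4 at 100%, and Gm29216 matched 483 of the 1545 bases of mt-Co1 at 99.793%. No pseudogene is annotated for mt-Atp8, but the copies of mt-Co2 and mt-Atp6 lie 233 bases apart on chromosome 1 and 233 bases apart in mitochondrial DNA, and mt-Atp8 shares 43 of its bases with mt-Atp6. The first 60 bases of mt-Co2 (chrM:7013-7072), of Gm28661 (chr1:24615506-24615565, minus strand) and of a less similar copy on chromosome 2, Gm13341 (chr2:22587903-22587962, minus strand), show the contrast. Capitals mark bases that differ from mt-Co2, 0 in Gm28661 and 2 in Gm13341.
mt-Co2: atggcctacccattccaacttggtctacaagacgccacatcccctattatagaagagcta
Gm28661: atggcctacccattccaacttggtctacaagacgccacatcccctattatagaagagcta
Gm13341: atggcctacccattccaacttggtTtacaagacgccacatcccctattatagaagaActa
In mt-Nd4 the copy ends inside the gene, so that the last 502 bases have no near-identical match. The 60 bases around that end (chrM:11013-11072) have in capitals the 30 bases beyond the last base that Gm28439 matches.
mt-Nd4: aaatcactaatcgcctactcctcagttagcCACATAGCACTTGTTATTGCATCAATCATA
For mt-Nd1, mt-Nd2, mt-Nd5, mt-Nd6 and mt-Cytb no annotated copy reached 99% identity. The best match to mt-Nd6 was Gm11408, with 93.642% identity over its 519 bases. The first 60 bases of mt-Nd6 (chrM:14011-14070, minus strand) and of Gm11408 (chr4:80003855-80003914, minus strand) differ at 2 bases, in capitals.
mt-Nd6: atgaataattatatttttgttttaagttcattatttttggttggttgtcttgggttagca
Gm11408: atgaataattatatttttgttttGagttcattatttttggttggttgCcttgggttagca

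The 13 mRNAs fell into an abundant and a sparse group. Counts scaled to library size are given as CPM, and per kilobase (kb) of gene where genes are compared. In chow livers mt-Cytb had the highest level, 15080 ± 2690 CPM per kb (SD, n = 5), followed by mt-Nd2 with 9249 ± 778 and mt-Nd1 with 8874 ± 859 CPM per kb. The difference between mt-Nd2 and mt-Nd1, measured in the same 5 livers, was not tested. Next came mt-Nd4 with 4703 ± 638, mt-Co1 with 4036 ± 412 and mt-Nd5 with 3358 ± 390 CPM per kb. Divided by only the bases without a near-identical copy, mt-Nd4 was at 12910 ± 1750 and mt-Co1 at 5871 ± 599 CPM per kb. The rank of mt-Nd4 thus depends on the length used. The light-strand mRNA mt-Nd6 stood at 282.8 ± 49.1 CPM per kb. The 6 other mRNAs were all at or under 34.33 ± 4.31 CPM per kb, the level of mt-Co2, with mt-Nd3 lowest at 1.718 ± 0.481 CPM per kb. These 6 are mt-Co2, mt-Atp8, mt-Atp6, mt-Co3, mt-Nd3 and mt-Nd4l. All but mt-Atp8 have an annotated copy in the run on chromosome 1. The bases between the copies of mt-Co2 and mt-Atp6, where one of mt-Atp8 would lie, were not compared. Per library, mt-Co2 held 570 to 1232 counts, mt-Co3 212 to 567, mt-Atp6 21 to 344, mt-Nd3 12 to 40, mt-Nd4l 0 to 40 and mt-Atp8 1 to 22 counts, while mt-Cytb held 33241 to 612108. The copies themselves held few counts, with medians of 130 for Gm28437, 101 for Gm10925, 90 for Gm29216, 67 for Gm28661 and 41 for Gm28439. Of copies elsewhere in the genome, Gm11410, which matched mt-Cytb at 92.907% identity, had a median of 77 and Gm13340, which matched mt-Co1 at 97.605%, one of 73. How reads that match 2 places were counted is not given in the sources used here and was not tested. The levels of the 6 sparse mRNAs are therefore uncertain, as are those of mt-Co1 and mt-Nd4 over their copied part. Levels compared between these genes and mt-Nd1, mt-Nd2, mt-Nd5, mt-Nd6 and mt-Cytb carry that limit.

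**Figure D1:**
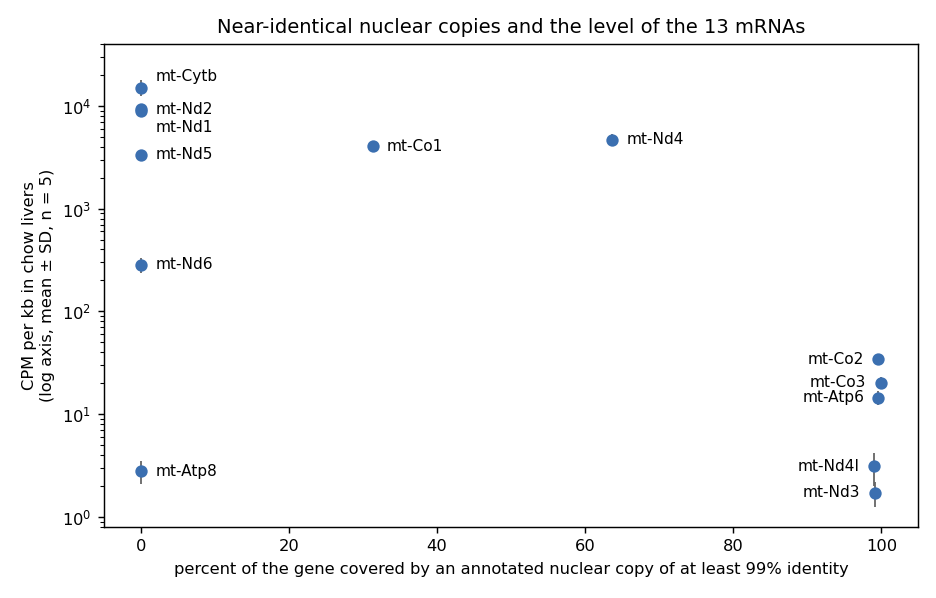
Level of each mitochondrial mRNA in chow livers (vertical log axis, CPM per kb, mean ± SD, n = 5) against the percent of its length covered by an annotated nuclear copy of at least 99% identity. The 5 mRNAs covered over almost their whole length sit at or under 34.33 CPM per kb, and mt-Atp8, which has no annotated copy, sits at 2.786 CPM per kb.

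Total counts per library ran from 29037525 to 45868842 in 8-week livers, from 35254088 to 48901145 in 16-week livers and from 33522456 to 42586342 in chow livers. Sums over 10 hepatocyte markers were 107200 to 371800 CPM in 8-week, 83160 to 117300 CPM in 16-week and 119000 to 160800 CPM in chow livers, and all 10 were detected in each group. The 371800 CPM were those of 8-week replicate 3, and the other 8-week livers held 107200 to 213200 CPM. 8-week replicate 3 differed from the rest of its group. It held 2269 CPM of 6 skeletal muscle markers and 1498 CPM of 6 squamous epithelium markers, where the other 8-week livers held 0.7664 to 301.5 and 2.535 to 266.5 CPM. Other groups held such transcripts too. Skeletal muscle markers were 5.304 to 357.9 CPM in 16-week and 0.6662 to 350.8 CPM in chow livers. Squamous epithelium markers were 6.204 to 233.3 CPM in 16-week and 0.1103 to 0.6023 CPM in chow livers, so every CDA-HFD liver lay above every chow liver. 8-week replicate 3 also had 1141 CPM over the detected cytoplasmic rRNA genes, against 67.97 to 172.3 CPM in the other 8-week livers. Calls of mitochondrial genes that changed without it are given both ways. Replicate 4 of the 8-week group held 6880 CPM of 6 exocrine pancreas markers and replicate 5 held 297.1 CPM. Marker sums for macrophages were 1285 to 7000 CPM in 8-week, 2568 to 4502 CPM in 16-week and 316.9 to 430.5 CPM in chow livers, and those for stellate cells and myofibroblasts 363.7 to 1323, 755 to 1255 and 90.86 to 180.5 CPM. The 7000 and 1323 CPM were again those of 8-week replicate 3, and the other 8-week livers reached 3207 and 987.5 CPM. No marker of these 3 liver lists was at 0 in a group, and the part of cell makeup in the results that follow was not tested. In whole liver, fewer cells of a type and less RNA per cell cannot be told apart.

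The 13 mRNAs together took a smaller share of the counts in every CDA-HFD liver than in any chow liver. Their share was 2.71, 2.22, 0.249, 2.36, 3.03, 3.13, 3.18 and 3.14% in 8-week replicates 1 to 8. In 16-week livers it ranged from 2.37 to 3.15% with a median of 2.805%. In chow livers it was 5.34, 4.58, 4.23, 4.44 and 4.37%. The lowest value by far was that of 8-week replicate 3. Without it, the share averaged 2.824 ± 0.399% in 8-week livers (SD, n = 7), and the mean was 2.804 ± 0.228% in 16-week livers (n = 8) and 4.592 ± 0.437% in chow livers (n = 5). This share divides by the total counts of the library and uses no other scaling factor, so a rise in other RNAs also lowers it. The 7 mRNAs with at least 1889 counts in every library made up 98.7 to 99.91% of it. The 2 rRNAs held 743 counts over all 21 libraries and the 22 tRNAs 4447, against 26585569 for the mRNAs. Whether rRNA was removed before sequencing is not given in the sources used here, so these rRNA counts are no measure of the mitochondrial ribosome.

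**Figure D2:**
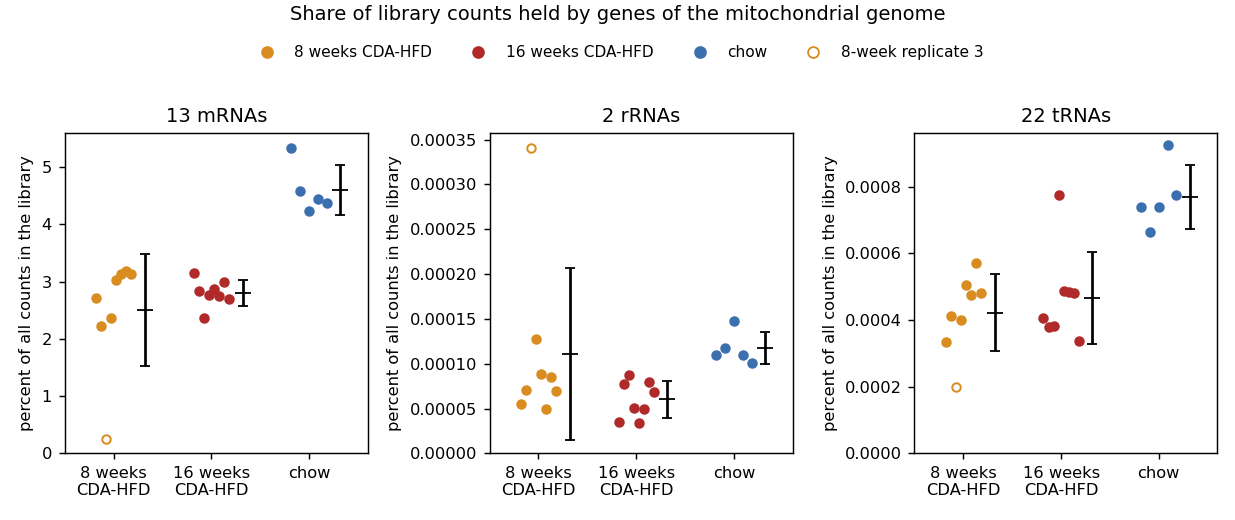
Percent of all counts in a library held by the 13 mRNAs, the 2 rRNAs and the 22 tRNAs (each point 1 liver, black bar the mean ± SD, n = 8, 8 and 5). The mRNA share lay between 0.249 and 3.18% in CDA-HFD livers and between 4.23 and 5.34% in chow livers, and the open point is 8-week replicate 3.

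Livers after 8 weeks of the diet were compared with chow livers for the mitochondrial transcripts that differ with feeding. Of the 13 mRNAs, 9 were called lower and 0 higher by edgeR at an adjusted p under 0.05, while over all 17104 genes tested 20.5% were called lower and 30.8% higher. Without 8-week replicate 3 the mRNAs called lower were 11 of 13, beside 25.8% lower and 31.5% higher over all genes. The median log2 change of the 13 mRNAs was -0.89, and that of all genes 0.158. All 8-week libraries lay below all chow libraries for 7 of the 13, beside 14.8% of all genes.

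Among the complex I subunits, which take electrons from NADH, mt-Nd5 had the largest change of the abundant mRNAs. Its level was 2150, 784, 302, 999, 2120, 2560, 2180 and 2690 CPM in 8-week replicates 1 to 8, and 7140, 5610, 5300, 6250 and 6330 CPM in chow livers. The groups did not overlap, and replicates 2, 3 and 4 were the lowest. The log2 change was -1.83 ± 0.35 (SE, edgeR adjusted p = 0.000234), a level 3.56-fold lower. mt-Nd2 ran from 479.3 to 4792 CPM in 8-week livers with a median of 4111, against 8926 to 10910 CPM in chow livers with a median of 9417. Its log2 change was -1.44 ± 0.31 (SE, edgeR adjusted p = 0.000662), with no overlap. mt-Nd1 averaged 4444 ± 1560 CPM in 8-week livers and 8492 ± 823 CPM in chow livers (SD, n = 8 and 5), a log2 change of -0.93 ± 0.25 (SE, edgeR adjusted p = 0.00471). mt-Nd4 changed by -0.82 ± 0.28 on the log2 scale (SE, edgeR adjusted p = 0.0192), and without chow replicate 1 the value was -0.74 and no longer called (edgeR adjusted p = 0.0522). mt-Nd6, the light-strand subunit, ran from 58.51 to 166.4 CPM in 8-week livers with a median of 95.18, and from 120 to 180.1 CPM in chow livers with a median of 147.8. These groups overlapped, and the log2 change of -0.56 ± 0.25 did not pass (SE, edgeR adjusted p = 0.0672). It passed without 8-week replicate 3, the highest of its group, with a log2 change of -0.71 (edgeR adjusted p = 0.0128), and also without replicate 5. Of the sparse subunits, mt-Nd4l changed by -1.55 and mt-Nd3 by -0.01 on the log2 scale (edgeR adjusted p = 0.007 and 0.978).

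mt-Cytb, the sole mitochondrially encoded subunit of complex III, was 9360 ± 3170 CPM in 8-week livers and 17250 ± 3080 CPM in chow livers (SD, n = 8 and 5). Its range of 2311 to 12590 CPM in 8-week livers lay below that of 14780 to 22510 CPM in chow livers, and the log2 change was -0.88 ± 0.25 (SE, edgeR adjusted p = 0.00588). mt-Co1, the catalytic core of cytochrome c oxidase (complex IV), was 131.3 to 3639 CPM in 8-week livers with a median of 3103, and 5621 to 7275 CPM in chow livers with a median of 6155. Its log2 change was -1.21 ± 0.38 (SE, edgeR adjusted p = 0.0131), and -1.04 ± 0.12 without replicate 3. The other complex IV subunits, mt-Co2 and mt-Co3, did not pass, with log2 changes of 0.13 and -0.37 (edgeR adjusted p = 0.647 and 0.0521). Without replicate 3, mt-Co3 passed at -0.42 (edgeR adjusted p = 0.0242). For ATP synthase (complex V), mt-Atp6 was 1.46 to 7.157 CPM in 8-week and 8.702 to 12.39 CPM in chow livers, a log2 change of -0.89 ± 0.22 (SE, edgeR adjusted p = 0.00209). mt-Atp8 changed by -1.20 ± 0.28 on the log2 scale (SE, edgeR adjusted p = 0.00135) on 1 to 16 counts in each 8-week library. Of the pseudogene copies with the most counts, Gm10925 changed by -1.06 on the log2 scale, beside -0.89 for mt-Atp6, Gm28437 by -0.42, beside -0.37 for mt-Co3, and Gm28661 by -0.10, beside 0.13 for mt-Co2 (edgeR adjusted p = 0.00133, 0.0499 and 0.711). Gm29216 was at -0.53 and Gm13340 at -1.19, beside -1.21 for mt-Co1, Gm28439 at -1.5, beside -0.82 for mt-Nd4, and Gm11410 at -0.71, beside -0.88 for mt-Cytb (edgeR adjusted p = 0.00934, 0.000288, 0.00819 and 0.00985). Whether these values come from the copies or from the mitochondrial genes was not tested.

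**Figure D3:**
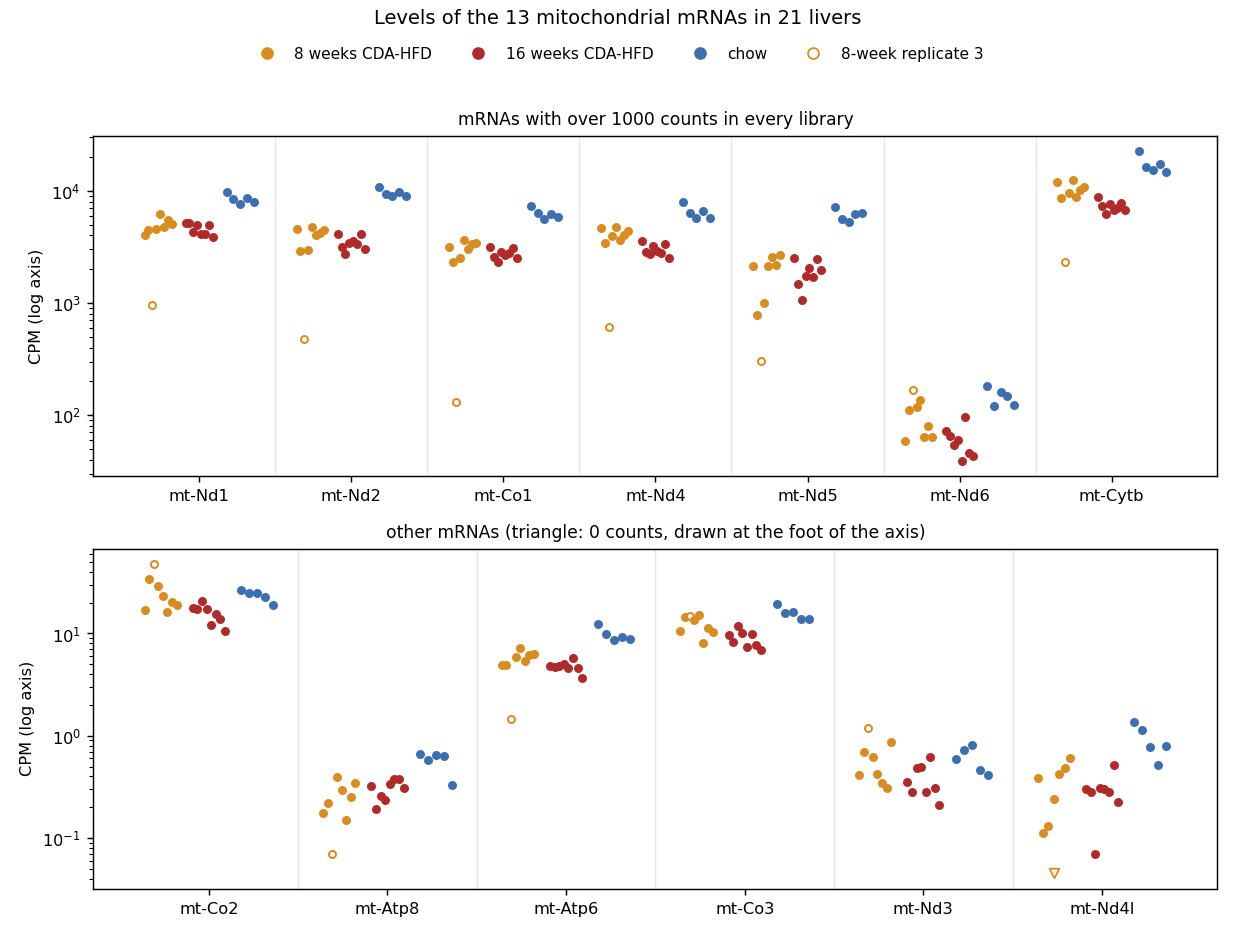
Level of each mitochondrial mRNA in every liver (vertical log axis, CPM), with the abundant mRNAs above and the sparse ones below. For mt-Nd1, mt-Nd2, mt-Co1, mt-Nd4, mt-Nd5 and mt-Cytb all points of 8-week and 16-week livers lie under those of chow livers, while those of mt-Co2 and mt-Nd3 overlap between the groups.

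After 16 weeks of CDA-HFD, 12 of the 13 mRNAs were called lower than in chow livers and 0 higher, beside 22.5% lower and 29.4% higher over all genes. Their median log2 change was -1.11, and that of all genes 0.03. In 10 of the 13 all 16-week libraries lay below all chow libraries, beside 23.3% of all genes. Both comparisons use the same chow livers. mt-Nd5 was again the abundant mRNA with the largest change. It ran from 1067 to 2500 CPM in 16-week livers with a median of 1851, against 5303 to 7138 CPM in chow livers with a median of 6248, a log2 change of -1.71 ± 0.35 (SE, edgeR adjusted p = 0.000304). mt-Nd2 followed at -1.48, mt-Nd6 at -1.31, mt-Cytb at -1.24, mt-Co1 at -1.19, mt-Nd4 at -1.11 and mt-Nd1 at -0.89 on the log2 scale, with edgeR adjusted p between 0.000154 and 0.013. mt-Nd6 was 39.05 to 96.94 CPM in 16-week livers with a median of 56.71, against 120 to 180.1 CPM in chow livers, so these groups no longer overlapped. mt-Co1 was 2300 to 3159 CPM in 16-week livers, against 5621 to 7275 CPM in chow livers. Of the sparse mRNAs, mt-Nd4l, mt-Atp6, mt-Atp8, mt-Co3 and mt-Co2 were called at log2 changes of -1.66, -1.05, -0.91, -0.81 and -0.59 (edgeR adjusted p = 0.00304, 0.000355, 0.00707, 0.000141 and 0.0323). mt-Nd3 was at -0.66 and did not pass (edgeR adjusted p = 0.0935). The call of mt-Co2 was lost without 16-week replicates 5, 7 or 8 or without chow replicates 1, 2 or 3, each left out singly, with edgeR adjusted p up to 0.0738.

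The size of these changes depended on how libraries were scaled. Scaling by total counts alone in place of TMM factors shifted the log2 changes of single genes upward by a median of 0.146 at 8 weeks and of 0.529 at 16 weeks, and made 78.3% and 89.5% of the called genes higher, where TMM scaling gave 60.1% and 56.6%. With total counts alone, 4 of the 13 mRNAs were called lower at 8 weeks and 5 at 16 weeks. Of all 17104 genes tested, 7685 were called at 8 weeks, 6016 of them higher, and 9435 at 16 weeks, 8449 of them higher. The log2 change of mt-Nd1 was then -0.72 at 8 weeks and -0.36 at 16 weeks (edgeR adjusted p = 0.0643 and 0.345), and that of mt-Nd5 was -1.60 and -1.19 (edgeR adjusted p = 0.00278 and 0.0153). At 16 weeks all 13 log2 changes stayed negative on this scale, and at 8 weeks all but those of mt-Co2 (0.18) and mt-Nd3 (0.05). As a percent of all raw counts, mt-Nd1 was 0.0475 to 0.593% in 8-week, 0.507 to 0.644% in 16-week and 0.664 to 0.795% in chow livers. The same 7 mRNAs, mt-Nd1, mt-Nd2, mt-Co1, mt-Atp6, mt-Nd4, mt-Nd5 and mt-Cytb, had all 8-week and all 16-week libraries below all chow libraries by this share of total counts. How many of all genes did so by this share was not counted.

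**Figure D4:**
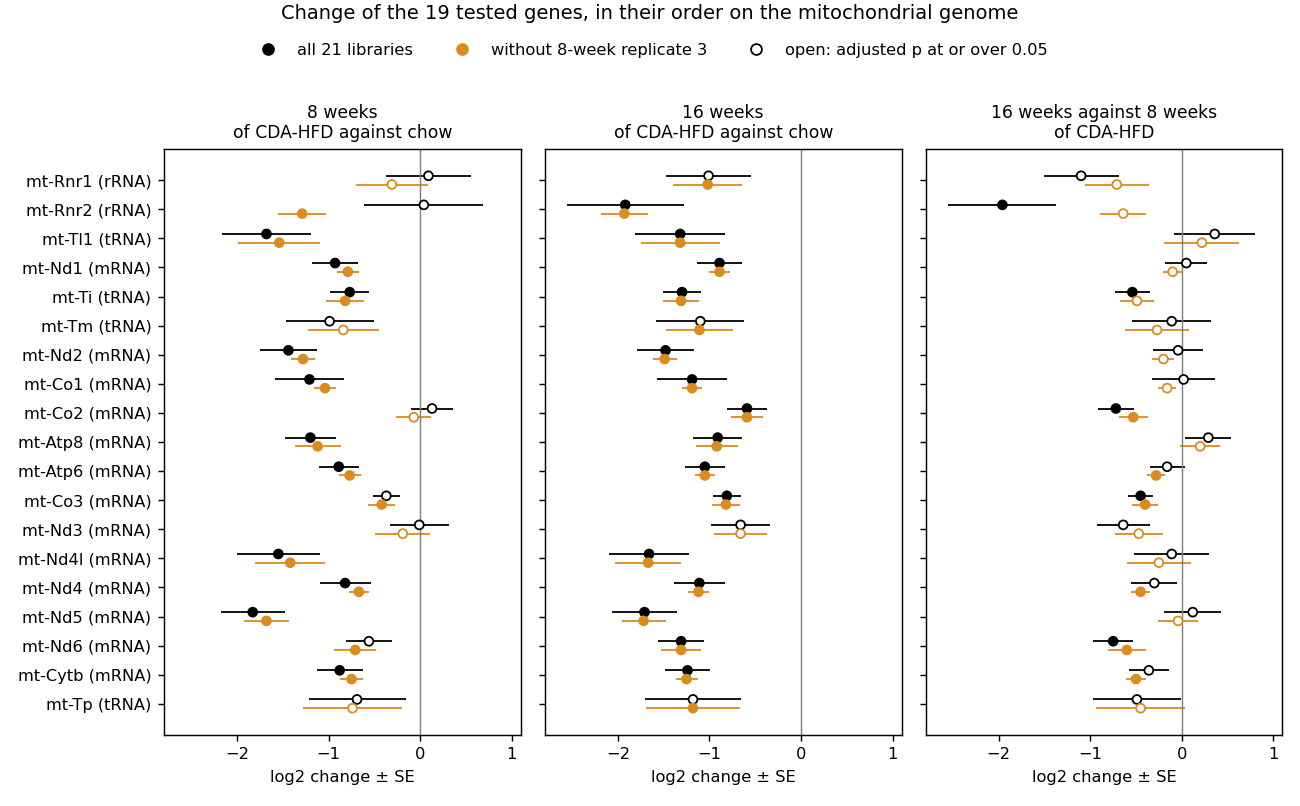
Log2 change ± SE (horizontal axis) of the 19 genes that passed the filter on low counts, from top to bottom in their order on the mitochondrial genome, in 3 comparisons. Filled points passed an adjusted p under 0.05, and orange points leave out 8-week replicate 3. Against chow the highest value of an mRNA was 0.13, that of mt-Co2 at 8 weeks. For mt-Rnr2 the black point at 8 weeks is at 0.04 and the orange point at -1.29.

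The third comparison asked whether the mitochondrial transcripts differ between 16 and 8 weeks of the diet. By edgeR, 3 of the 13 mRNAs were called lower at 16 weeks and 0 higher, beside 11.0% lower and 10.6% higher over all genes. All 16-week libraries lay below all 8-week libraries for 0 of the 13, beside 0.509% of all genes. The mRNAs called were mt-Nd6 with a log2 change of -0.75 ± 0.22, mt-Co2 with -0.72 ± 0.20 and mt-Co3 with -0.45 ± 0.14 (SE, edgeR adjusted p = 0.0232, 0.0163 and 0.0268). mt-Nd6 averaged 59.32 ± 18.9 CPM in 16-week livers and 99.74 ± 39.7 CPM in 8-week livers (SD, n = 8 each). Without 8-week replicate 3, 6 of the 13 were called lower, beside 12.5% lower and 14.8% higher over all genes. The additions were mt-Cytb at -0.50, mt-Nd4 at -0.45 and mt-Atp6 at -0.28 on the log2 scale (edgeR adjusted p = 0.0033, 0.00308 and 0.0466). mt-Nd1, mt-Nd2, mt-Co1 and mt-Nd5 had log2 changes between -0.04 and 0.12 with all libraries and between -0.20 and -0.04 without that library, none of them called. Without 8-week replicates 3, 4 and 5 together these calls were lost, with mt-Nd6 at -0.34, mt-Co2 at -0.435 and mt-Co3 at -0.28 (edgeR adjusted p = 0.28, 0.109 and 0.202), and mt-Nd4 at -0.41 and mt-Cytb at -0.46 were called instead (edgeR adjusted p = 0.0171 and 0.0147). Of the 13, 1 was called lower without 16-week replicate 5, 1 without 16-week replicate 8 and 2 without 8-week replicate 5. Calls over all genes, higher and lower together, fell as well, from 3703 with all libraries to 2248 without 16-week replicate 8. They also fell without 16-week replicate 5, so the loss of calls in these fits was not particular to the mitochondrial mRNAs. With scaling by total counts alone 0 of the 13 mRNAs were called, and log2 changes of single genes shifted upward by a median of 0.38. Over all genes 4695 were called, 4450 of them (94.8%) higher, where TMM scaling gave 49.0%. On that scale mt-Nd6 was at -0.28, mt-Co2 at -0.24 and mt-Co3 at -0.02, and the values of mt-Nd2, mt-Nd4, mt-Atp6 and mt-Nd4l turned positive, none of them called.

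The mRNAs did not change in equal proportion. Among the 7 abundant mRNAs, mt-Nd5 made up 3.45 to 9.53% of the counts in 8-week livers, 5.5 to 9.52% in 16-week livers and 10.7 to 12.7% in chow livers, without overlap between chow and the other groups. mt-Nd2 made up 9.66 to 15.1%, 14.0 to 16.1% and 16.6 to 18.2%. The 7 shares are parts of the same sum, so a lower share of some raises the others. The share of mt-Nd4 was higher on average, with 12.4 to 16.0% in 8-week livers and 12.1 to 14.0% in 16-week livers. In chow livers it was 11.6 to 12.1%, while the level of mt-Nd4 in CPM was lower on CDA-HFD than on chow. mt-Cytb made up 32.7 to 46.6% in 8-week, 30.1 to 32.7% in 16-week and 29.7 to 34.3% in chow livers. mt-Nd1 made up 13.3 to 19.5% in 8-week livers, 18.8 to 22.7% in 16-week livers and 14.9 to 16.2% in chow livers. mt-Nd5 also varied between livers of the same group, a spread chosen after its values were seen and not tested. Per 100 counts of mt-Nd1 it had 53.1, 17.7, 31.5, 21.7, 34.1, 54.1, 39.5 and 53.2 counts in 8-week replicates 1 to 8. It had 48.6, 28.6, 24.8, 35.0, 49.1, 41.7, 49.5 and 50.0 in 16-week replicates 1 to 8, and 72.9, 66.0, 68.9, 72.9 and 80.2 in chow livers. Replicates 2 and 4 were lowest at 8 weeks and replicates 2 and 3 at 16 weeks, and every CDA-HFD liver lay below every chow liver.

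Ratios of 2 genes within a library need no scaling and were compared with exact two-sided permutation tests, 10 ratios in each of 3 comparisons, adjusted over all 30. The smallest p that 8 against 5 livers allow is 0.00155, and 8 against 8 allow 0.000155. mt-Cytb lies far from the heavy-strand promoter and mt-Nd1 close behind the rRNAs. Per 100 counts of mt-Nd1, mt-Cytb had 171, 143, 144, 153, 163, 172, 157 and 173 counts in 16-week livers. It had 293, 197, 241, 207, 203, 186, 185 and 216 counts in 8-week livers, and 230, 191, 201, 201 and 187 in chow livers. All 8 of the 16-week livers lay below every other liver. The log2 difference was -0.43 for 16 against 8 weeks (exact permutation p = 0.000155, adjusted 0.00466) and -0.34 for 16 weeks against chow (exact permutation p = 0.00155, adjusted 0.00518). For 8 weeks against chow it was 0.08 (exact permutation p = 0.5, adjusted 0.602). mt-Nd6 and mt-Nd5 are neighbours on opposite strands whose ends overlap by 14 bases. Their ratio was higher at 8 weeks than on chow by 1.47 on the log2 scale, above all chow livers in 5 of 8, but did not pass after adjustment (exact permutation p = 0.028, adjusted 0.0646). It was 2.37 to 55.2 counts of mt-Nd6 per 100 of mt-Nd5 in 8-week livers and 1.95 to 3.06 in chow livers, the 55.2 in 8-week replicate 3, without which the log2 difference was 1.03 (exact permutation p = 0.0455, adjusted 0.0909). For mt-Atp8 over mt-Atp6, which share a transcript, no comparison passed, the closest being 16 against 8 weeks at 0.51 on the log2 scale (exact permutation p = 0.0207, adjusted 0.0517). mt-Nd4l over mt-Nd4 differed by -0.94 at 8 weeks and by -0.66 at 16 weeks against chow on the log2 scale, and neither passed (exact permutation p = 0.0606 and 0.0559, adjusted 0.114 and 0.112). 8-week replicate 3 had no mt-Nd4l count and did not enter that ratio.

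Each mitochondrial mRNA was also set against a nuclear partner of the same complex. mt-Nd1 over Ndufs1, a core subunit of complex I, was 25.4 to 46.1 counts per count of Ndufs1 in 8-week livers, 38.2 to 45.6 in 16-week livers and 47.5 to 53.0 in chow livers. mt-Cytb over Uqcrc1, a core protein of complex III, gave 2.46 to 46.1, 21.9 to 37.7 and 51.1 to 67.3 counts per count. mt-Co1 over Cox4i1, a nuclear subunit of complex IV, gave 0.0601 to 10.2, 4.33 to 8.81 and 12.1 to 14.1 counts per count. These 3 ratios were lower in all 8 of the 8-week livers and all 8 of the 16-week livers than in any chow liver. At 8 weeks the log2 differences from chow were -0.38, -1.15 and -1.89 (each exact permutation p = 0.00155, adjusted 0.00518), and without replicate 3 they were -0.41, -0.67 and -1.04 (each exact permutation p = 0.00253, adjusted 0.00842). At 16 weeks they were -0.30, -0.86 and -0.95 (each exact permutation p = 0.00155, adjusted 0.00518). mt-Atp6 over Atp5a1, the alpha subunit of ATP synthase, differed from chow by -0.76 at 8 weeks and -0.50 at 16 weeks (exact permutation p = 0.00155 and 0.00311, adjusted 0.00518 and 0.00848), with all 8 and 7 of 8 livers below every chow liver. None of the 4 ratios differed between 16 and 8 weeks past the threshold, with adjusted p from 0.512 to 0.895 in exact permutation tests. The nuclear partners themselves were not called at 8 weeks against chow, with log2 changes of -0.53 for Ndufs1, 0.31 for Uqcrc1, 0.60 for Cox4i1 and -0.24 for Atp5a1 (edgeR adjusted p = 0.0984, 0.327, 0.167 and 0.0598). At 16 weeks Atp5a1 was called lower by 0.54 on the log2 scale (edgeR adjusted p = 0.000141). These genes lie on nuclear chromosomes and their mRNAs are counted by the same libraries, so the ratios share the counts but not a scaling factor.

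**Figure D5:**
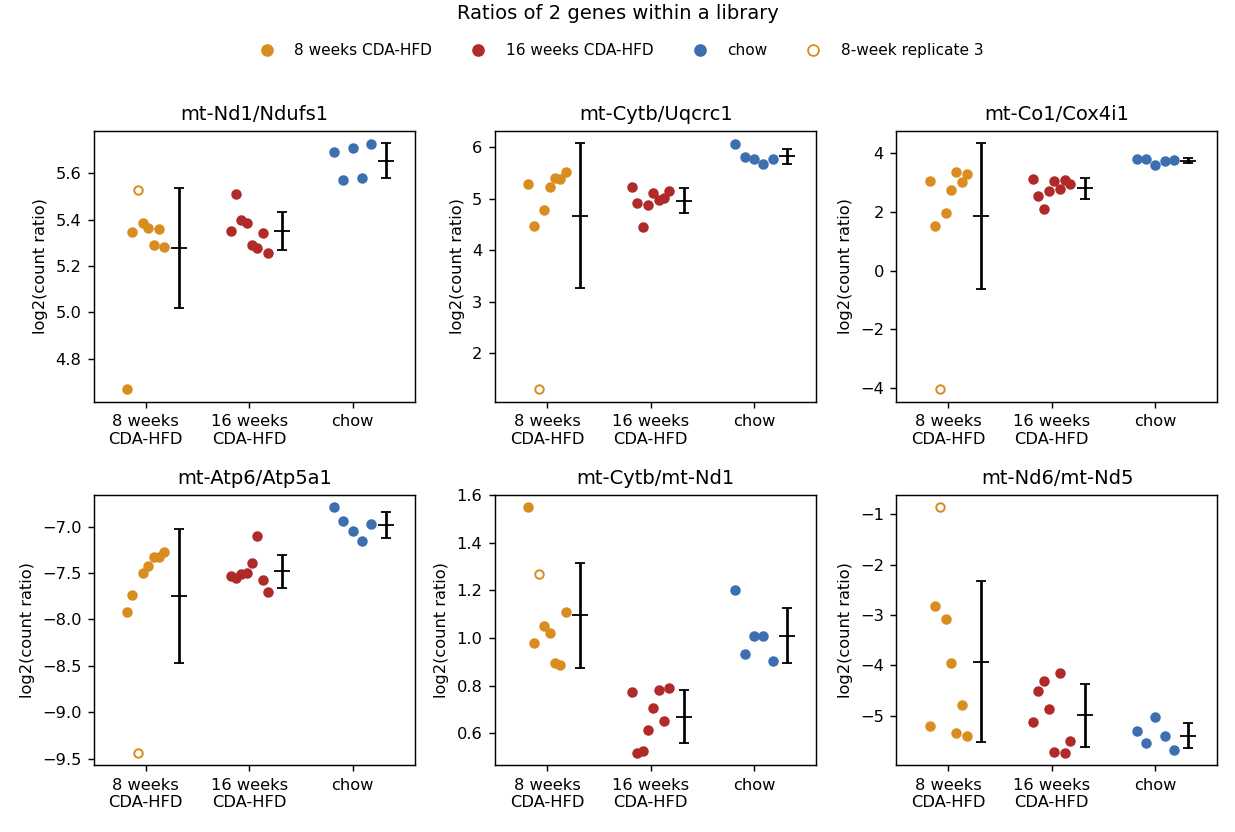
Log2 of the count ratio of 2 genes in every liver (vertical axis, 1 panel a ratio, black bar the mean ± SD). In the panels of mt-Nd1/Ndufs1, mt-Cytb/Uqcrc1 and mt-Co1/Cox4i1 all CDA-HFD livers lie below all chow livers. In the panel of mt-Cytb/mt-Nd1 the 16-week livers lie below both other groups, which overlap.

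The rRNAs and tRNAs were near the limit of what could be counted. mt-Rnr2, the large-subunit rRNA, had 5, 12, 73, 14, 18, 7, 13 and 21 counts in 8-week replicates 1 to 8, 7 to 21 counts in 16-week livers, and 23, 32, 27, 28 and 24 counts in chow livers. The 73 counts are from 8-week replicate 3, which had the fewest counts of mRNA. With it, the log2 change at 8 weeks was 0.04 ± 0.65, and without it -1.29 ± 0.26 with no overlap (SE, edgeR adjusted p = 0.968 and 0.000327). At 16 weeks against chow mt-Rnr2 was called lower at -1.92 ± 0.64 (SE, edgeR adjusted p = 0.015), and its ratio to mt-Nd1 was lower by 1.09 on the log2 scale, below every chow liver in 7 of 8 (exact permutation p = 0.00311, adjusted 0.00848). Sums over the 5 of 7 listed cytoplasmic rRNA genes in the table, of which AY036118 was at 0, were 39.84 to 103.4 CPM in 16-week livers, against 109.7 to 140.1 CPM in chow livers, without overlap, and their part in the value of mt-Rnr2 was not tested. Its call at 16 against 8 weeks, -1.96, rested on that library and was -0.64 without it (edgeR adjusted p = 0.0247 and 0.0623). mt-Rnr1, the small-subunit rRNA, had 6 to 27 counts in a library, with log2 changes of 0.09 at 8 weeks and -1.01 at 16 weeks against chow (edgeR adjusted p = 0.881 and 0.0699). Without 8-week replicate 3 the value at 16 weeks passed (edgeR adjusted p = 0.0236).

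Of the 22 tRNAs, 4 passed the filter on low counts, so counts over the tested tRNAs do not speak for all 22. Whether their counts come from mature tRNAs, from uncut precursors or from the ends of neighbouring mRNAs was not tested. mt-Ti had 45 to 115 counts in 8-week, 69 to 129 in 16-week and 123 to 149 in chow libraries, and as CPM all CDA-HFD livers lay below all chow livers. Its log2 change was -0.77 ± 0.21 at 8 weeks and -1.30 ± 0.21 at 16 weeks against chow (SE, edgeR adjusted p = 0.00548 and 2.5e-05). At 16 against 8 weeks it was -0.54, and without 8-week replicate 3 it was -0.49 and no longer called (edgeR adjusted p = 0.0478 and 0.0628). That call was lost in 21 of 29 alternatives, among them total counts alone, which gave -0.113 (edgeR adjusted p = 0.638). The mt-Ti sequence shares its first 2 bases with the end of mt-Nd1. mt-Tl1 fell by 1.68 at 8 weeks and by 1.32 at 16 weeks on the log2 scale (edgeR adjusted p = 0.00806 and 0.0278). At 16 weeks that call was lost without chow replicate 4 or 5 or without 16-week replicate 3 or 8 (edgeR adjusted p up to 0.122). mt-Tm was at -0.99 and -1.10 and mt-Tp, the proline tRNA of the light strand, at -0.69 and -1.18 on the log2 scale, none of them called with all libraries (edgeR adjusted p = 0.0915, 0.0598, 0.279 and 0.0623). Without 8-week replicate 3 both passed at 16 weeks (edgeR adjusted p = 0.0125 and 0.0485). mt-Tt, the threonine tRNA, had 54 counts over all 21 libraries and was not tested. Of the other 17 tRNAs, 9 had no count in any library and 8 had between 1 and 20 counts over all libraries.

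The nuclear genes that build, copy and express the mitochondrial genome were read from 13 lists with 246 genes, and each list's counts stand beside the shares of all genes that were called. Few nuclear subunits of the respiratory chain were called at 8 weeks. Over complexes I to V, 3 of the 73 subunits tested were called lower and 4 higher at 8 weeks against chow, beside 20.5% lower and 30.8% higher over all genes. Without replicate 3 these were 7 and 1, beside 25.8% and 31.5%. The examples called higher with the largest change, Atp5e at 2.0, Atp5g1 at 1.58 and Ndufa2 at 1.51 on the log2 scale (edgeR adjusted p = 0.0378, 0.0317 and 0.0392), were at 0.17, 0.36 and 0.34 without replicate 3 and no longer called (edgeR adjusted p = 0.6, 0.102 and 0.242). At 16 weeks against chow 15 of 73 were called lower and 0 higher, beside 22.5% lower and 29.4% higher over all genes, so that the share called lower lay near that of all genes. Without 8-week replicate 3, which then no longer entered the estimate of the spread, 40 were called lower and 1 higher, beside 31.4% and 34.9%. Of those called lower with all libraries, Ndufab1, an acyl carrier protein of complex I, fell by 0.81 on the log2 scale (edgeR adjusted p = 1.88e-05). Sdha, the flavoprotein of complex II, fell by 0.70, Uqcrfs1, the iron-sulphur protein of complex III, by 0.59, and Cox8a of complex IV by 0.50 (edgeR adjusted p = 3.41e-05, 0.0018 and 0.0427). At 16 against 8 weeks 55 of 73 were called lower, beside 11.0% of all genes, and 24 without replicate 3, beside 12.5%. The median log2 change of complex I was 0.56 at 8 weeks and -0.43 at 16 weeks against chow, and those of all genes were 0.158 and 0.03.

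The counts of the smaller lists are to be read against the same shares of all genes, 20.5% lower and 30.8% higher at 8 weeks and 22.5% and 29.4% at 16 weeks, and, without 8-week replicate 3, 25.8% and 31.5% at 8 weeks and 31.4% and 34.9% at 16 weeks. Of 10 tested genes of mitochondrial transcription, 3 were called lower and 2 higher at 8 weeks (3 and 1 without replicate 3), and 3 lower and 1 higher at 16 weeks against chow (6 and 1). Tfb2m, which opens the promoters, was 2.56 ± 0.956 CPM in 8-week, 2.403 ± 0.404 CPM in 16-week and 4.017 ± 0.641 CPM in chow livers (SD, n = 8, 8 and 5), with log2 changes of -0.64 and -0.74 (edgeR adjusted p = 0.0313 and 0.0123). Tfam, which packages mitochondrial DNA and activates its promoters, was 39.28 ± 2.19 CPM in 16-week and 57.43 ± 4.6 CPM in chow livers, a log2 change of -0.55 (edgeR adjusted p = 0.000302). Mterf2, a member of the mitochondrial termination factor family, was called higher, with 3.337 ± 0.853 CPM in 8-week, 3.451 ± 0.594 CPM in 16-week and 1.381 ± 0.364 CPM in chow livers, log2 changes of 1.28 and 1.32 (edgeR adjusted p = 3.69e-05 and 1.45e-05). Of 15 genes for replication and upkeep of mitochondrial DNA, 1 was called lower and 2 higher at 8 weeks (3 and 2 without replicate 3), and 5 lower and 1 higher at 16 weeks against chow (6 and 1). Twnk, the replicative helicase, was at -0.58 at 16 weeks, and Slc25a4, an ADP/ATP carrier, at 1.38 and 1.98 on the log2 scale at 8 and 16 weeks (edgeR adjusted p = 0.00906, 0.000566 and 9.16e-06).

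Of 22 genes of mitochondrial RNA processing, 4 were called lower and 3 higher at 8 weeks and 8 lower and 0 higher at 16 weeks against chow, and without 8-week replicate 3 these were 8 and 2, and 13 and 0. The 4 of 22 called lower at 8 weeks lay near the 20.5% of all genes. Fastkd1, an RNA-binding protein, fell by 0.89 and by 1.0 on the log2 scale, and Grsf1, which marks the RNA granules where precursors are handled, by 0.65 and by 0.67 (edgeR adjusted p = 0.00322, 0.000856, 0.0355 and 0.0292). Of 7 genes of RNA stability and decay, 1 was called lower at 8 weeks and 2 at 16 weeks, beside 20.5% and 22.5% of all genes. Without 8-week replicate 3 these were 5 and 4, beside 25.8% and 31.4%. With all libraries they were Pde12, a phosphodiesterase that trims poly(A) tails, at both times, with log2 changes of -0.61 and -0.77 (edgeR adjusted p = 0.00683 and 0.000877), and Lrpprc, which binds and stabilises mitochondrial mRNAs, at 16 weeks with -0.81 (edgeR adjusted p = 0.0292). Lrpprc was 81.46 ± 6.93 CPM in 16-week livers and 142.6 ± 11.5 CPM in chow livers (SD, n = 8 and 5), without overlap. For translation, 4 of 75 mitochondrial ribosomal protein genes were called lower and 16 higher at 8 weeks, beside 20.5% and 30.8% of all genes. These became 7 and 5 without replicate 3, beside 25.8% and 31.5%. At 16 weeks against chow 13 were called lower and 0 higher, beside 22.5% and 29.4%. Without 8-week replicate 3 these became 25 and 1, beside 31.4% and 34.9%. Of 19 tRNA synthetases, 4 were called lower and 3 higher at 8 weeks and 5 lower and 1 higher at 16 weeks, and without 8-week replicate 3 these were 6 and 2, and 10 and 2. With all libraries the counts called lower in this list lay near the shares of all genes at both times. Nars2, the mitochondrial asparaginyl-tRNA synthetase, fell by 0.84 and by 1.07, and Gars, the glycyl-tRNA synthetase of cytosol and mitochondria, was higher by 1.18 and 0.80 on the log2 scale (edgeR adjusted p = 0.00119, 7.42e-05, 0.00078 and 0.0104).

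Of 9 regulators of mitochondrial biogenesis, 2 were called lower at 8 weeks, a share near that of all genes, and 3 at 16 weeks, and 0 higher. Without 8-week replicate 3 these were 2 and 4. The transcription factor Gabpa was at -0.98 and -0.87, Yy1 at -0.67 and -0.62, and the coactivator Ppargc1b at -0.86 at 16 weeks (edgeR adjusted p = 0.011, 0.0193, 0.000404, 0.000647 and 0.0103). Of 10 nuclear genes for abundant proteins of the organelle, 2 were called lower and 2 higher at 8 weeks. At 16 weeks 3 were called lower and 1 higher. Without 8-week replicate 3 these were 4 and 2, and 5 and 1. The 2 called lower at 8 weeks again lay near the share of all genes. Tomm20, a receptor of the outer membrane import complex, was at -0.72 and -0.71, Hspd1, the matrix chaperonin, at -0.46 and -0.70, and Vdac2, an outer membrane channel, at 0.45 and 0.41 on the log2 scale (edgeR adjusted p = 9.94e-06, 6e-06, 0.00104, 6.31e-06, 0.0106 and 0.0174). The median log2 change of this list was 0.08 at 8 weeks and -0.40 at 16 weeks, beside 0.158 and 0.03 for all genes. For the mitochondrial mRNAs it was -0.89 and -1.11. The amount of the organelle was not measured.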

How the data were processed

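RNA sequencing counts of 21 livers were used. Per the labels, total RNA was purified with an RNeasy kit and made into stranded total RNA libraries. The values the authors deposited are whole-number counts for each Ensembl gene, not normalized. The submitters' processing notes name GRCm38. Nothing in the sources used here names the aligner or counter, or says how strand and reads with several matches were treated. GENCODE M21 supplied positions, transcript sequences and the symbols of 52489 of 52636 gene IDs (99.72%). Copies of mitochondrial genes were sought among its transcripts with blastn 2.17.0, over at least 100 bases.

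Genes were filtered with filterByExpr, which left 17104 genes with 99.961% of the counts, 19 of the 37 mitochondrial genes among them. The quasi-likelihood test of edgeR 4.0.16 (R 4.3.3) was fitted once over the 21 libraries with TMM scaling, and p-values were adjusted over all genes tested. A gene was called at an adjusted p under 0.05. Ratios were tested in Python 3.11.15 with scipy 1.17.1. Alternatives were DESeq2 1.42.0 size factors and Wald test, total counts alone, scaling without the mitochondrial genes, no filter, a mean of at least 1 CPM, fits of only the 2 groups compared, 8-week replicates 3, 4 and 5 left out, and each library left out. For ratios they were a pseudocount of 0.5, medians and libraries left out.

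The members and lists were chosen with earlier results of these data known. Named were all mRNAs and rRNAs, the 5 tRNAs with the most counts, the partners in ratios, the copies with the most counts, and up to 3 called members of each nuclear list with the largest change. In simulated libraries of 17104 genes for 8 weeks against chow, genes drawn at random were raised in the 8-week group. Of these, 9.0% of 67 raised 1.5-fold, 49.3% of 67 raised 2-fold and 86.4% of 66 raised 4-fold were called higher. Of the unchanged genes 4 were called. Lowered genes and a library like 8-week replicate 3 were not simulated.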

Additional observations from a re-analysis of the deposited data

Results flagged for a closer look

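A library far from the rest of its group was found in 19 of 96 pairs of a group and a measure. Chance gives about 1 in 20, but the measures share libraries and counts, so the 19 cannot be judged against it. Of the 19, 13 were 8-week replicate 3. The values were not tested further.

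In 8-week replicate 3 the mRNAs were low: mt-Nd1 at 959 CPM with the next liver at 4050, mt-Nd2 at 479 with the next at 2890, mt-Co1 at 131 with the next at 2330, mt-Nd4 at 613 with the next at 3450, mt-Cytb at 2310 with the next at 8720 and mt-Atp6 at 1.46 with the next at 4.95 CPM. The mRNA share was 0.249%, with the next at 2.22%. mt-Atp6 was at 0.144 per 100 counts of Atp5a1, with the next at 0.413. The rRNAs were high in the same liver: mt-Rnr1 at 1.81 CPM with the next at 0.888, mt-Rnr2 at 5.08 with the next at 0.477 CPM, and an rRNA share of 0.000341% with the next at 0.000128%. mt-Rnr2 reached 0.529 per 100 counts of mt-Nd1, with the next at 0.01, and mt-Nd6 reached 55.2 per 100 counts of mt-Nd5, with the next at 14.2.

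Other livers stood out in single measures. In 16-week replicate 4 mt-Tl1 was 3.49 CPM with the next at 1.07, and the tRNA share was 0.000776% with the next at 0.000488%. In 16-week replicate 8 mt-Rnr2 was 0.00863 per 100 counts of mt-Nd1 with the next at 0.00512, and in 16-week replicate 6 mt-Atp6 was 0.731 per 100 counts of Atp5a1 with the next at 0.596. In 8-week replicate 1 mt-Nd1 was 2540 per 100 counts of Ndufs1 with the next at 3890. In chow replicate 5 mt-Atp8 was 0.329 CPM with the next at 0.574.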

How the results depend on the processing

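Of 1617 log2 changes of single genes under 29 alternatives, 1470 kept their direction and their side of the threshold, 65 lost the call, 39 gained it and 43 changed sign. The sign changes lay in 13 results, of which 0 were called with all libraries and 3 values, all of mt-Rnr2 at 8 weeks, were called under an alternative. That change, 0.04 with all libraries, was -1.33 with the DESeq2 Wald test, -1.52 without 8-week replicates 3, 4 and 5, -0.235 with total counts alone, -0.0346 without a filter and -0.0352 in a fit of only the 2 groups compared, and ran from -1.29 to 0.206 with each library left out. At 8 weeks against chow, mt-Rnr1 was -0.65 and mt-Co2 -0.157 without 8-week replicates 3, 4 and 5, and mt-Nd3 0.0546 with total counts alone. At 16 against 8 weeks, total counts alone gave 0.266 for mt-Nd2, 0.175 for mt-Atp6, 0.0213 for mt-Nd4, 0.193 for mt-Nd4l and 0.17 for mt-Tm, and leaving out 8-week replicates 3, 4 and 5 gave -0.0433 for mt-Nd1, -0.153 for mt-Co1 and -0.142 for mt-Nd5. With each library left out, values at 8 weeks against chow ran from -0.307 to 0.259 for mt-Rnr1, from -0.0667 to 0.206 for mt-Co2 and from -0.194 to 0.119 for mt-Nd3. At 16 against 8 weeks they ran from -0.138 to 0.508 for mt-Tl1, -0.0995 to 0.13 for mt-Nd1, -0.269 to 0.0482 for mt-Tm, -0.204 to 0.0315 for mt-Nd2, -0.156 to 0.0947 for mt-Co1, -0.292 to 0.115 for mt-Nd4l and -0.0374 to 0.244 for mt-Nd5. With total counts alone, the mRNAs called lower were 4 at 8 weeks, 5 at 16 weeks and 0 at 16 against 8 weeks, where TMM scaling gave 9, 12 and 3. In a fit of only the 2 groups compared, 1 mRNA was called lower at 16 against 8 weeks, and 2226 of all genes in place of 3703. Leaving out each library gave 1 to 6 mRNAs and 2248 to 5132 genes there.

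Of 500 log2 ratios under 24 alternatives, 465 kept their direction and their side of the threshold, 14 passed it that had not and 21 changed sign, 0 of these called. Differences of medians gave -0.318 for mt-Rnr2/mt-Nd1 at 8 weeks against chow. In 16-week against 8-week livers they gave -0.00624 for mt-Nd1/Ndufs1, -0.264 for mt-Cytb/Uqcrc1, -0.0205 for mt-Co1/Cox4i1 and -0.0627 for mt-Atp6/Atp5a1. Without 8-week replicates 3, 4 and 5, mt-Rnr2/mt-Nd1 was -0.805 at 8 weeks, and at 16 against 8 weeks mt-Nd4l/mt-Nd4 was -0.0281, mt-Cytb/Uqcrc1 -0.246, mt-Co1/Cox4i1 -0.0482 and mt-Atp8/mt-Atp6 0.636. With each library left out, ratios ran at 8 weeks against chow from -0.617 to 0.409 for mt-Rnr2/mt-Nd1, 1.03 to 1.68 for mt-Nd6/mt-Nd5 and -1.14 to -0.755 for mt-Nd4l/mt-Nd4. At 16 weeks against chow they ran from -0.853 to -0.407 for mt-Nd4l/mt-Nd4 and -0.0188 to 0.223 for mt-Atp8/mt-Atp6. At 16 against 8 weeks they ran from -0.257 to 0.195 for mt-Rnr1/mt-Rnr2, -0.013 to 0.11 for mt-Nd1/Ndufs1, -0.186 to 0.418 for mt-Cytb/Uqcrc1, -1.5 to -0.477 for mt-Rnr2/mt-Nd1 and 0.413 to 0.596 for mt-Atp8/mt-Atp6. The causes were not tested. No paired analysis was possible because the labels give no replicate numbers shared between the groups. The sparse mRNAs, rRNAs and tRNAs are limited by their counts, and the reads that match nuclear copies cannot be traced from counts.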
